A study of Homo sapiens with 2 samples.

Results

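Keratins are the intermediate filament proteins of epithelial cells. Their filaments are built from pairs of a type I and a type II keratin, so that a cell normally makes at least one of each type. KRT8 (type II) and KRT18 (type I) are the pair of simple epithelia, KRT7 (type II) and KRT19 (type I) are other simple epithelial keratins, KRT5 (type II) and KRT14 (type I) are the pair of basal epidermal cells, and KRT10 (type I) belongs to the suprabasal epidermis, where KRT1 is its partner. KRT20 (type I) is found in Merkel cells and gut epithelium and is a diagnostic marker of Merkel cell carcinoma. These 8 genes were taken by name from a table of 32742 genes, and all 8 had a row.

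The cells were WaGa, an established human line of Merkel cell carcinoma, a neuroendocrine skin cancer, grown in suspension in RPMI medium. There were 2 libraries of droplet-based single-cell RNA with 1 library per group, of WaGa cells with no treatment and of WaGa cells treated with domatinostat, an inhibitor of histone deacetylases (HDACs). The labels gave neither dose nor time, and did not say whether the untreated cells received the DMSO in which domatinostat was dissolved. The untreated-labelled library held 4137 cells and 45562976 unique molecular identifiers (UMIs, each standing for 1 captured transcript), and the treated-labelled library held 6679 cells and 60160108 UMIs. With no second library of either group there was no test between conditions, and the intervals below are 95% exact intervals that cover counting error only. CDKN1A, a gene that HDAC inhibitors are known to induce, stood at 97.9 CPM (UMIs per 1000000 UMIs) in the untreated-labelled library and at 39.4 CPM in the treated-labelled library, so each direction below follows the labels alone.

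The promoter letters of 3 of these genes are shown first. A promoter window was available for 4 of the keratins, and the other 4 had none. The available window of KRT8 is not shown, and whether it holds the letters marked below is not given here. KRT20 and KRT10 lie on chromosome 17 with only the coding gene KRT12 between them, yet differed in how they were spread over cells, and KRT5 is the epidermal comparison on chromosome 12. The 250 bases before each gene's start are from RefSeq on build GRCh38.p14, whereas the deposited table was made on hg19. They are KRT20 at chr17:40885243-40885492, KRT10 at chr17:40822615-40822864 and KRT5 at chr12:52520395-52520644, all on the minus strand. Capitals mark ATAAA where it lies in the last 50 bases.
KRT20: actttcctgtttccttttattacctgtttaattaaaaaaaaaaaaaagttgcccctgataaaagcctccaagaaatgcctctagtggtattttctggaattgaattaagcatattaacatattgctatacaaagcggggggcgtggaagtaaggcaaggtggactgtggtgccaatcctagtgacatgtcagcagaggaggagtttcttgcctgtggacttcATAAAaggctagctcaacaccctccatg
KRT10: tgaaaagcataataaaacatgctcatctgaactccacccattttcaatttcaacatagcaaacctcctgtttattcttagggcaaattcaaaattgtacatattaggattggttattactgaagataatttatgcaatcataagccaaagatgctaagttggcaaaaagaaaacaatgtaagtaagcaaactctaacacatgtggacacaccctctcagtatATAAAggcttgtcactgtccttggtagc
KRT5: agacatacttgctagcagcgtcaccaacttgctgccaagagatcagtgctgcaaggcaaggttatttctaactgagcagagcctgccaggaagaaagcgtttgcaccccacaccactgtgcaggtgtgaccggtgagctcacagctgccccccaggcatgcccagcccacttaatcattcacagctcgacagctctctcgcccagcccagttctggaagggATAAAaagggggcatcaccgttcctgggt
ATAAA began 28 bases before the start in KRT20 and in KRT10 and 29 bases before it in KRT5. On the gene strand, 6.10% of 35116 RefSeq promoter windows held ATAAA in the same 50 bases, and 9.39% held it on either strand. These letters were picked after the sequences were seen, and a match is a description, not a site. The genes shown were chosen and the KRT8 window was left out, so the matches do not describe the keratins as a set. The GC content of the 250 bases was 41.2% for KRT20, 34.8% for KRT10 and 56% for KRT5, against a median of 58% over all windows. No expression value below rests on these letters.

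Of the 8 keratins, 5 were abundant in both libraries and 3 were scarce. The 5 abundant genes KRT8, KRT19, KRT18, KRT10 and KRT20 supplied 96.8% of all keratin UMIs in the untreated-labelled library and 97.1% in the treated-labelled library. All 55 keratin genes of the table summed to 2476 CPM in the untreated-labelled library and to 1605 CPM in the treated-labelled library. KRT8 ranked 194th by level among 20807 genes with a UMI in the untreated-labelled library, and 310th among 20477 in the treated-labelled library. UMIs were counted near the 3′ end of transcripts, so levels of different genes are compared in UMIs without division by length.

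**Figure D1:**
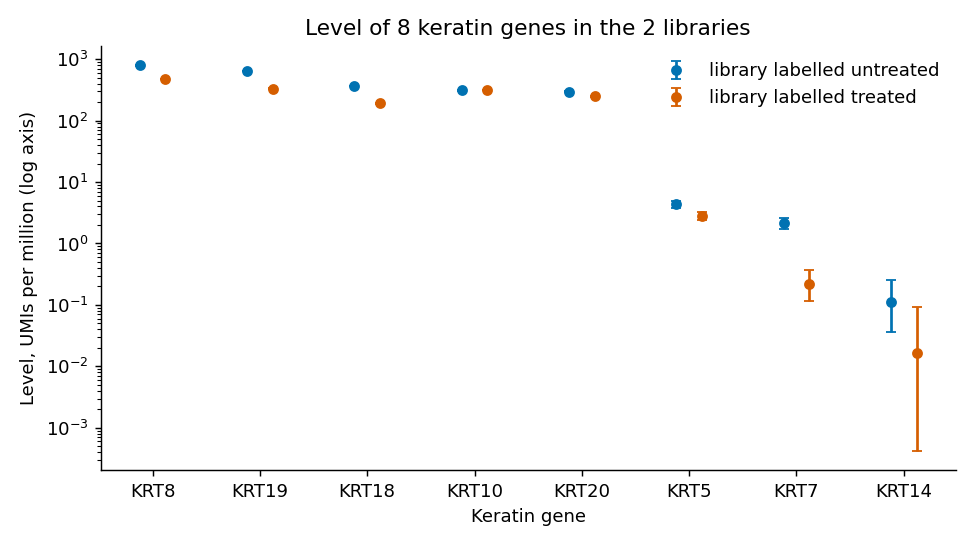
Level of the 8 keratin genes in UMIs per 1000000 (CPM, log axis) in the untreated-labelled library (blue) and the treated-labelled library (orange); bars are 95% exact Poisson intervals, hidden by the points where narrow. KRT8, KRT19 and KRT18 are lower in the treated-labelled library, KRT10 is level at 311 and 313 CPM, and KRT14 rests on 5 and 1 UMIs.

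Among the 7 members that had at least 50 UMIs, 5 lay at least 1.5-fold lower in the treated-labelled library (KRT8, KRT18, KRT19, KRT7 and KRT5). Over all 13958 genes with at least 50 UMIs the share past that fold was 14.9%. No member was at least 1.5-fold higher, and 3.77% of all genes were. The members' median log2 ratio of labelled treated to labelled untreated was -0.73, beside -0.02 over all genes. The level of a gene went with these shares: among 1544 genes at 100 CPM or more, 1.88% were at least 1.5-fold lower and 1.17% higher, and among 6387 genes under 10 CPM, 27.5% were lower and 6.03% higher. KRT8, KRT18 and KRT19 belong to the first of these classes, and KRT7 and KRT5 to the second. Over cells thinned to equal depth the count was 3, as KRT5 then had a log2 ratio of -0.49 and KRT7 had under 50 UMIs.

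Both genes of the simple epithelial pair were lower in the treated-labelled library. KRT8 had 787 CPM in the untreated-labelled library and 473 CPM in the treated-labelled library, a ratio of 0.601 (interval 0.592 to 0.611). KRT18, its type I partner, had 364 CPM and 191 CPM, a ratio of 0.525 (0.512 to 0.537). The 2 genes are immediate neighbours on chromosome 12. KRT8 outnumbered KRT18 by 2.16 to 1 in the untreated-labelled library and by 2.48 to 1 in the treated-labelled library. RefSeq names 52 pseudogenes for KRT8 and 68 for KRT18, no such pseudogene had a row in the table, and how reads shared with them were counted is not given in the sources used here.

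Detection followed the same order. A KRT8 UMI was seen in 98.3% of cells labelled untreated and in 92.5% labelled treated, and a KRT18 UMI in 87.0% and 67.1%. Cells labelled treated were shallower, with a median of 8578 UMIs against 11125, so each cell was also thinned to 4351 UMIs. At that equal depth, KRT18 was seen in 68.7% of 3892 cells labelled untreated and in 48.7% of 6012 labelled treated, and KRT8 in 92.7% and 82.6%. Both genes thus had more cells without a UMI in the treated-labelled library at equal depth as well. The part of free droplet RNA in these shares is unknown, since these libraries hold only WaGa cells.

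KRT19, which also pairs with KRT8, had 639 CPM in the untreated-labelled library and 332 CPM in the treated-labelled library, a ratio of 0.520 (0.511 to 0.529). At equal depth its UMIs were seen in 84.4% and 67.3% of cells. KRT7, the other simple epithelial type II keratin, was scarce, with 98 UMIs in the untreated-labelled library and 13 in the treated-labelled library. That is 2.15 CPM and 0.216 CPM, a ratio of 0.1005 (0.0517 to 0.180). KRT7 UMIs came from 92 cells (2.22%) and 13 cells (0.195%), so type II transcripts in these cells were almost all KRT8.

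KRT20, the Merkel cell keratin, differed less. It had 295 CPM in the untreated-labelled library and 248 CPM in the treated-labelled library, a ratio of 0.839 (0.820 to 0.859), and did not reach the 1.5-fold mark. At equal depth KRT20 was seen in 64.2% and 61.2% of cells. Its share of all keratin UMIs was 11.9% in the untreated-labelled library and 15.5% in the treated-labelled library, because KRT8, KRT18 and KRT19 were lower there by more.

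Among the epidermal keratins, KRT10 was abundant and level. It had 311 CPM and 313 CPM, a ratio of 1.01 (0.987 to 1.03), and at equal depth was seen in 73.2% and 73.4% of cells. KRT1, the usual partner of KRT10, had 3 UMIs in the untreated-labelled library and 0 of 60160108 in the treated-labelled library, where a limit of 3 counts allows up to 0.0499 CPM. TMEM99, which overlaps KRT10 on the opposite strand, had 27.2 CPM and 16.7 CPM. Whether counting used strand is not given in the sources used here, so reads of the 2 genes cannot be told apart with certainty. KRT5 had 197 and 167 UMIs (4.32 CPM and 2.78 CPM), a ratio of 0.642 (0.519 to 0.793), and 7 of the UMIs labelled treated came from 1 cell. KRT14, the partner of KRT5, had 5 UMIs and 1 UMI, a ratio of 0.151 with an interval from 0.0032 to 1.35 that includes no difference. The epidermal members thus were not present as pairs: KRT10 stood nearly without KRT1, and KRT5 nearly without KRT14.

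The order of levels was not the same in the 2 libraries. It ran KRT8, KRT19, KRT18, KRT10, KRT20 in the untreated-labelled library. The last pair lay close together there at 311 and 295 CPM, with intervals that did not overlap (305 to 316 and 291 to 301). These intervals cover counting error only and leave out the uneven spread of KRT20 over cells, so they do not settle the order of that pair. In the treated-labelled library the order ran KRT8, KRT19, KRT10, KRT20, KRT18, so KRT18 went from the third place to the fifth. Summed over the members, type I keratins outnumbered type II by 2.03 to 1 in the untreated-labelled library and by 2.28 to 1 in the treated-labelled library. With 1 library each, the spread of these orders between cultures is unknown.

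Of the other 47 keratin genes of the table, 21 had no UMI, 18 had 1 to 49 and 8 had at least 50. All 8 had a ratio below 1, with an interval that reaches 1.11 for KRT85. At least 1.5-fold lower were 6 of the 8 and none was that much higher, beside 14.9% and 3.77% of all genes, and 27.5% and 6.03% of genes under 10 CPM. KRT15, a basal and hair follicle keratin whose gene adjoins KRT19, was the most abundant of them, with 40.9 CPM and 31.6 CPM (ratio 0.773, interval 0.725 to 0.825). KRT23 (0.534), KRT31 (0.530), KRT24 (0.476) and KRT85 (0.806, interval 0.584 to 1.11) were scarcer.

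Among keratins with at least 50 UMIs, the lowest ratios belonged to 4 genes that follow one another on chromosome 12. KRT80 had 42 and 8 UMIs (ratio 0.144, 0.0585 to 0.311), and KRT7, next to it, is given above. The hair keratins KRT86 and KRT81 followed with 222 and 35 UMIs (0.119, 0.0811 to 0.171) and with 256 and 47 UMIs (0.139, 0.0996 to 0.190). All 4 lay at least 5-fold lower in the treated-labelled library, as did 1.27% of all genes with at least 50 UMIs. All 4 belong to the genes under 10 CPM, of which 27.5% were at least 1.5-fold lower. The 5-fold share among those scarce genes was not computed. KRT83, the next gene in the row, had 15 and 2 UMIs (0.101, 0.0112 to 0.434). This group of neighbours was noticed in the values and has no test. KRT81 and KRT86 are near-identical copies, so how reads were split between them is uncertain. KRT8 and KRT18, at the other end of the same type II cluster, were lower by 1.66-fold and 1.91-fold.

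**Figure D2:**
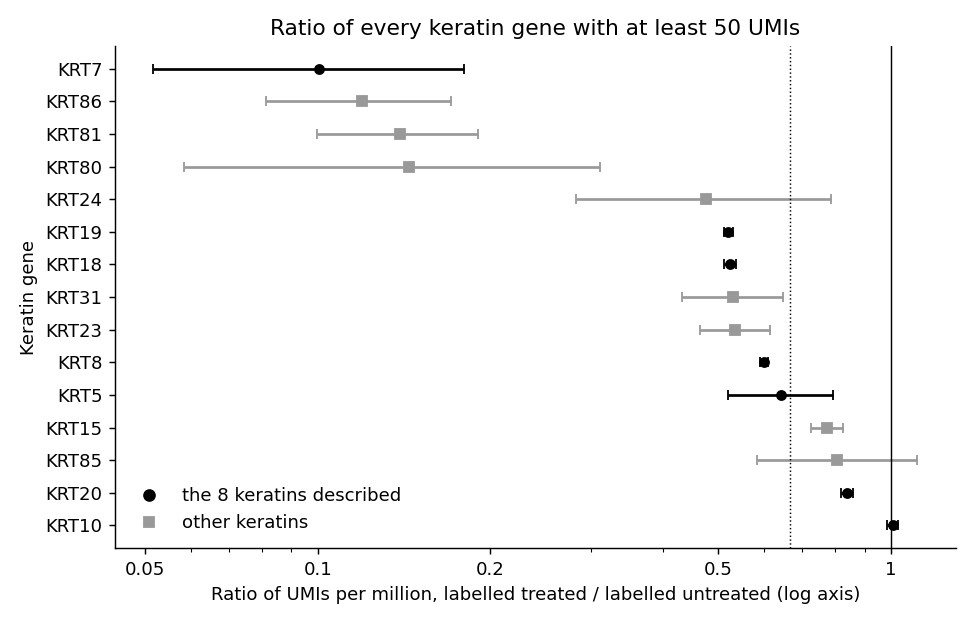
Ratio of CPM, labelled treated over labelled untreated (log axis), for the 15 keratin genes with at least 50 UMIs; black circles are the keratins described, grey squares other keratins, and bars are 95% exact intervals. The dotted line marks 1.5-fold lower; KRT7, KRT80, KRT81 and KRT86 sit apart at 0.1005 to 0.144, and KRT10 lies at 1.01.

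How evenly a keratin was spread over cells was compared at the equal depth of 4351 UMIs. The measure was the Fano factor, the variance over the mean, which is 1 for a gene whose UMIs fall on cells at random. KRT10 had 1.06 in the untreated-labelled library and 1.05 in the treated-labelled library, below or near the medians of 1.10 and 1.06 over 1219 and 1250 genes of similar level. KRT10 was missing in 26.8% of cells labelled untreated, against 26.3% for random placement at the same mean. KRT10 was thus close to evenly spread over cells in both libraries.

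The simple epithelial and Merkel keratins were more uneven. In the untreated-labelled library the Fano factor was 1.68 for KRT20, 1.76 for KRT8, 1.86 for KRT18 and 2.88 for KRT19. The respective values in the treated-labelled library were 1.33, 1.48, 1.71 and 1.59. All 4 lay lower there, as did their mean UMIs and the median over genes of similar level. Among those genes KRT19 stood at percentile 99.02 in the untreated-labelled library and 96.3 in the treated-labelled library, and KRT18 at 96.8 and 97.2. KRT19 was missing in 15.6% of cells labelled untreated, where random placement gives 6.36%, and the most KRT19-rich thinned cell held 37 UMIs. Counting all 5 abundant keratins together, 27.3% of cells labelled untreated and 13.6% labelled treated held at least 1 UMI of each. These 2 shares depend on how often each gene was seen. No share for independent placement was computed, so they do not describe joint expression.

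**Figure D3:**
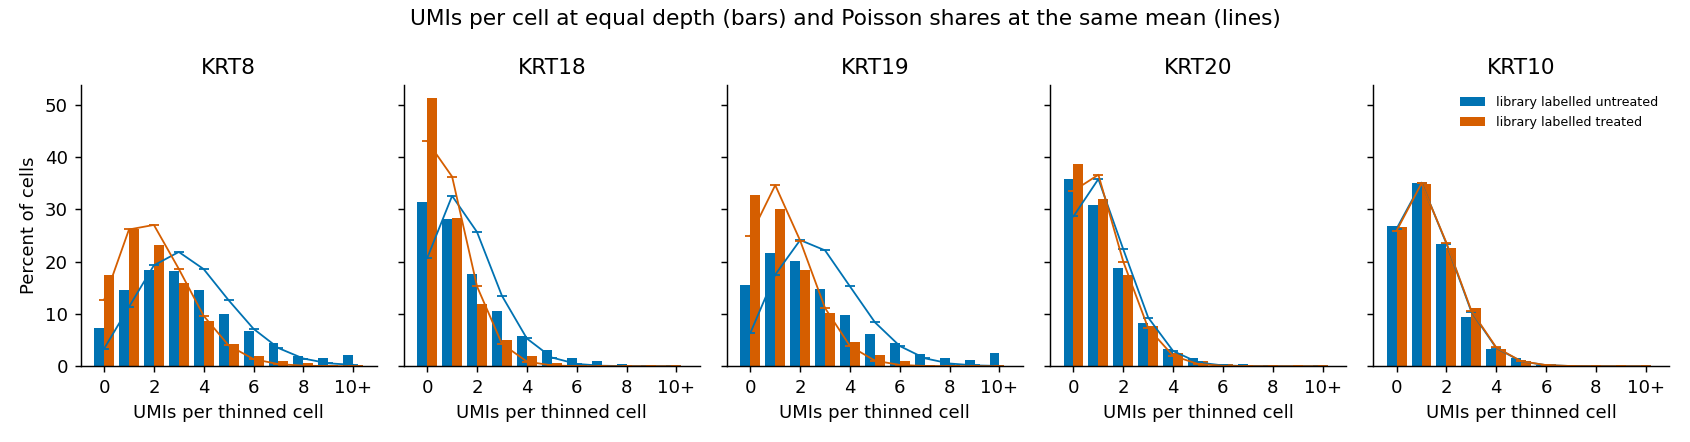
Percent of cells (vertical axis) by UMIs per cell thinned to 4351 UMIs (horizontal axis, 10+ pools the rest) for 5 keratins, as bars in blue (labelled untreated) and orange (labelled treated); lines give Poisson shares at the same mean. KRT10 follows its lines in both libraries, whereas KRT19 labelled untreated has both more empty cells (15.6% against 6.36%) and a tail at 10 or more.

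Co-expression was described by Pearson's r of log-transformed thinned UMIs over the cells of each library. Cells of 1 library share their source and counts are sparse, so r carries no p. KRT8 and KRT18 had the highest r of any pair of the abundant members, 0.33 over 3892 cells labelled untreated and 0.23 over 6012 labelled treated. Mean KRT18 was 0.793 UMIs in cells labelled untreated without a KRT8 UMI and 2.62 in cells with 6 or more. In the treated-labelled library the same means were 0.515 and 1.99. Cells with neither gene made up 3.78% of the untreated-labelled library, where independent placement gives 2.30%, and 10.9% of the treated-labelled library, where it gives 8.94%.

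The other pairs were weaker. KRT20 with KRT19 had an r of 0.18 in the untreated-labelled library and 0.02 in the treated-labelled library, and 0.33 and 0.12 in G1 cells. KRT19 with KRT15, its neighbour on chromosome 17, had 0.18 and 0.11. KRT8 with KRT19 had 0.08 and 0.00, and KRT20 had 0.06 and 0.09 with KRT8. KRT10 stayed between -0.03 and 0.05 with each of the other abundant members in both libraries. At this depth, KRT10 showed little covariation with the other keratins.

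The genes most like each keratin over cells were taken among 6532 genes seen in at least 5% of thinned cells of both libraries, by r averaged over the libraries. For KRT8 these were KRT18, CCER2 (0.21) and CHGA (0.19), and for KRT18 they were KRT8, CCER2 (0.22) and CHGA (0.21). CHGA encodes the secretory granule protein chromogranin A. At the other end, the lowest r was with PTTG1 for both KRT8 (-0.22) and KRT18 (-0.24). Those values were larger in size than the r with CCER2 or CHGA. The KRT20 neighbours were the tubulin gene TUBA1A (0.14), CHGA (0.14) and the chaperone gene HSP90AA1 (0.12). KRT19 went with the mitotic cyclins CCNB1 (0.15) and CCNB2 (0.14) and with KRTAP17-1 (0.15), a hair keratin-associated protein gene of the type I cluster. For KRT10 the highest were CDKN3, PIF1 and UBE2S at 0.08, 0.07 and 0.07. The 99th percentile of r over the candidate genes was 0.06 for KRT20, 0.07 for KRT8, 0.08 for KRT18, 0.07 for KRT19 and 0.03 for KRT10.

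Keratin levels varied with the cell cycle, and the libraries differed in phase calls. Scored from S and G2/M gene lists, 34.4% of thinned cells labelled untreated and 47.0% labelled treated were called G2/M, with 55.2% and 47.1% in S and 10.4% and 5.94% in G1. KRT18 was lowest in G2/M cells, with 246 CPM against 453 CPM in S cells labelled untreated, and 128 against 263 CPM labelled treated. KRT8 had the same order, with 623 against 893 CPM and 389 against 571 CPM. KRT19 and KRT15 ran the other way between S and G2/M. KRT19 had 567 CPM in S and 706 CPM in G2/M cells labelled untreated, and 271 and 394 CPM labelled treated. The G1 values of KRT19 were 755 CPM labelled untreated, above both other phases, and 303 CPM labelled treated, between them. KRT15 had 30.9 and 55.8 CPM, then 20.8 and 43.5 CPM.

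The difference between libraries was therefore also taken within each phase. KRT8 had ratios of 0.564 in G1, 0.639 in S and 0.624 in G2/M, and KRT18 had 0.574, 0.582 and 0.521. KRT19 had 0.402, 0.478 and 0.558. These 3 keratins were at least 1.5-fold lower in cells labelled treated within each phase. KRT20 was not: its ratio was 0.995 (0.901 to 1.10) in G1, 0.985 (0.953 to 1.02) in S and 0.697 (0.672 to 0.723) in G2/M. The lower KRT20 total thus lay in the G2/M calls, where KRT20 had 313 CPM labelled untreated and 218 CPM labelled treated. KRT10 had 0.864 (0.788 to 0.947) in G1, 0.980 in S and 1.03 in G2/M. KRT5 went against its total in G1, where it had only 4 and 16 UMIs.

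**Figure D4:**
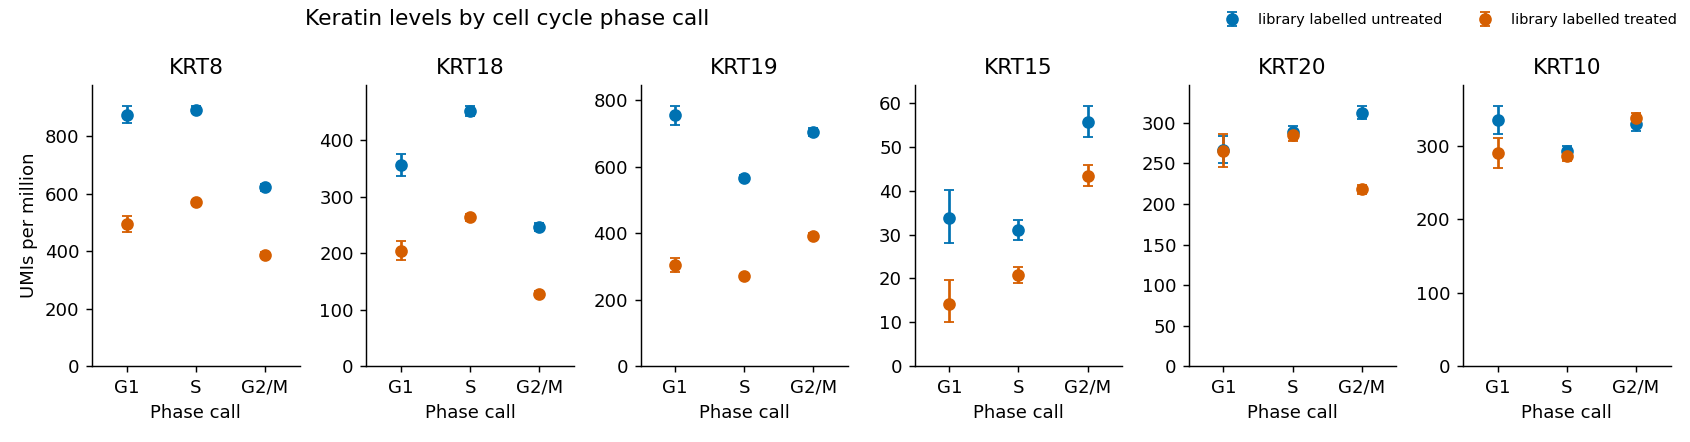
CPM (vertical axis from 0) of 6 keratins in cells called G1, S and G2/M, labelled untreated (blue) and labelled treated (orange), with 95% exact Poisson intervals. KRT8 and KRT18 are lowest in G2/M and KRT15 is highest there in both libraries, and the KRT20 points part only in G2/M (313 and 218 CPM).

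Clusters found within each library without any keratin gene also separated the keratins by level. In the untreated-labelled library, KRT18 was lowest at 216 and 225 CPM in the 2 clusters led by mitotic genes (CCNB1 and PIF1 first) and at 229 CPM in a cluster led by HIST1H2BD. It was highest, at 486 CPM, in the cluster led by IGLL5 and the G1/S cyclin gene CCNE1. In the treated-labelled library, KRT18 had 96.7 CPM in the cluster led by PIF1 and CCNB1 and 288 CPM in the cluster led by NUPR1. KRT10 had its highest level in a mitotic cluster of each library, 411 CPM labelled untreated and 355 CPM labelled treated. These clusters are named by their leading genes, and no cell type is given to them.

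The tail of KRT19 was then described by cells with 10 or more KRT19 UMIs at equal depth, a limit picked after the values were seen. There were 95 such cells (2.44%, interval 1.98 to 2.98) in the untreated-labelled library and 5 (0.0832%, 0.0270 to 0.194) in the treated-labelled library. They carried 12.2% of KRT19 UMIs in the thinned cells labelled untreated. Without them, the ratio of mean KRT19 over thinned cells was 0.556 in place of 0.504, so KRT19 remained lower in the treated-labelled library. Of the 95, 47 were in the untreated cluster led by CEND1 and SPRR1A and 26 in the cluster led by HIST1H2BD. Their median depth before thinning was 8305 UMIs, against 11474 in the other cells.

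Other genes of the type I cluster on chromosome 17 were high in those 95 cells. Mean KRT20 was 3.37 UMIs against 1.20 in the other cells labelled untreated, KRT15 was 0.821 against 0.156, and KRTAP17-1 was 4.75 against 0.411. KRT10, in the same cluster, was 1.58 against 1.33. The mean ratios of KRT31 and KRT23 were 0.833 and 1.18, but rested on only 2 and 5 UMIs in the 95 cells. Of the 7 cells labelled untreated with 10 or more KRT20 UMIs, 6 were among the 95. Within the type I cluster, 3 of 6 genes with at least 50 UMIs other than KRT19 had means over 2-fold higher in the 95 cells, and 0 of 11 flanking genes did. Some flanking genes had few UMIs in the 95 cells, such as HAP1 with 0 and TNS4 with 2. Over all 10972 genes with at least 50 UMIs, 4.07% did. Of 5 such genes in the type II cluster on chromosome 12, 1 was over 2-fold higher, KRT81 (0.0526 against 0.0208). KRT81 had 84 UMIs, of which only 5 were in the 95 cells, and KRT86 and KRT5 had only 1 and 3 UMIs there. KRT8 (4.93 against 3.36) and KRT18 (1.73 against 1.57) were not over 2-fold higher. ID1, a gene outside the cluster, was 6.35 against 1.58. The 95 cells were picked by KRT19 itself. KRTAP17-1, KRT15 and KRT20 covaried with KRT19 in that library, with r of 0.20, 0.18 and 0.18. The counts of genes over 2-fold higher describe that same covariation and are no separate support for a pattern by cluster.

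**Figure D5:**
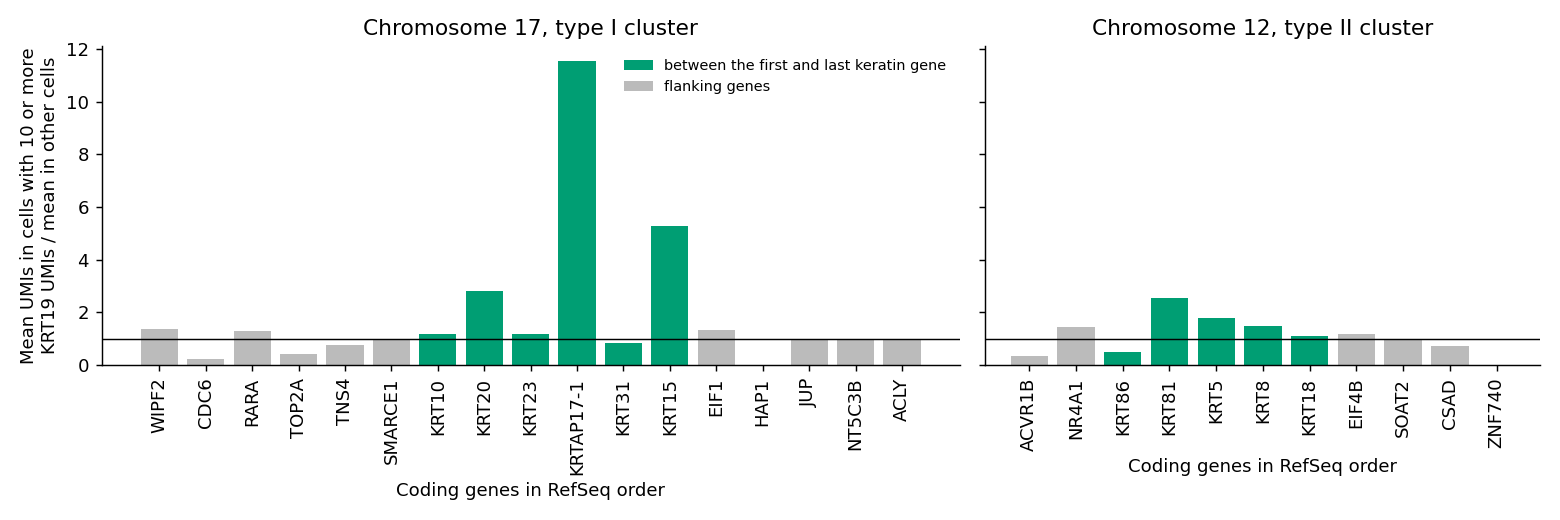
Mean UMIs in the 95 cells labelled untreated with 10 or more KRT19 UMIs over the mean in the other 3797 (vertical axis), at equal depth, for genes with at least 50 UMIs in RefSeq order (horizontal axis); green marks genes from the first to the last keratin gene, grey the flanks, and KRT19 is left out. KRTAP17-1 at 11.5, KRT15 at 5.27 and KRT20 at 2.82 stand above every grey bar.

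Starting from KRTAP17-1, already seen to be high in the 95 cells, gave a like description of overlapping cells. Of 20 cells labelled untreated with 10 or more KRTAP17-1 UMIs, 15 were among the 95, so the likeness is no separate support. In 76 cells labelled untreated with 5 or more KRTAP17-1 UMIs, mean KRT19 was 9.88 and mean KRT20 was 3.86, against 2.48 and 1.14 in cells with none. In 43 such cells labelled treated the means were 2.65 and 1.93, against 1.32 and 1.06. KRT10 did not share this pattern, with 1.53 against 1.31 labelled untreated and 1.00 against 1.34 labelled treated. Without the 95 cells, r of KRT20 with KRT19 in that library was 0.13 in place of 0.18.

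Lists of related genes set the keratins in context, each given by its members with at least 50 UMIs. Of 9 other intermediate filament genes, 2 were at least 1.5-fold lower and 0 higher (median log2 ratio -0.20), where 14.9% of all genes were lower and 3.77% higher. NES (ratio 0.165) and PRPH (0.291) were lowest, and the lamin genes LMNB1 (1.37) and LMNB2 (1.22) were highest. VIM, the mesenchymal filament gene, is listed at 0 in every cell. Of 12 plakin, desmosome and keratin-binding genes, 1 was lower and 0 higher (median -0.10), from TRADD (0.639), whose product binds KRT18, and EPPK1 (0.783) to TCHP (1.28) and the plakin gene MACF1 (1.31). DSP, the desmosomal plakin that anchors keratin filaments, had only 13 and 8 UMIs.

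Of 13 simple epithelial genes, 3 were lower and 0 higher (median -0.15), against the same 14.9% and 3.77%, with RAB25 (0.560) and ST14 (0.599) lowest and ESRP2 (1.23) and MUC1 (1.47) highest. Of 20 Merkel and neuroendocrine genes, 2 were lower and 1 higher (median -0.02), shares not far from those of all genes. VIP, a neuropeptide gene, was lowest (0.184), and the transcription factor gene SOX2 (1.57) and CHGA (1.38) were highest.

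All 6 measured genes of the cornified envelope and keratinocyte list were at least 1.5-fold lower (median -1.44), beside 14.9% of all genes and 27.5% of those under 10 CPM. DMKN (0.0631) and S100A2 (0.0999) were lowest, and LGALS7 (0.493) and LGALS7B (0.494), near-identical copies, were highest. Another 7 genes of that list were at 0 in both libraries, among them TP63, IVL and LOR, the defining genes of basal and cornifying keratinocytes. The naming of the cells as Merkel cell carcinoma, not the treatment label, was set beside the 8 Merkel markers that are not keratins. All 8 had at least 50 UMIs, a low bar, and they summed to 1562 and 1991 CPM. CHGA alone gave 886 and 1221 CPM of these sums, and ATOH1 gave 6.34 and 6.45 CPM. Of 6 basal keratinocyte markers (summed 61.1 and 43.6 CPM) 3 had at least 50 UMIs. Of 6 suprabasal markers (summed 399 and 356 CPM, mostly KRT10) 2 had, KRT10 and SFN. Markers of T, B, myeloid, melanocyte, endothelial and erythroid cells summed to at most 6.60 CPM per set in either library, and fibroblast markers to 29.3 and 17.9 CPM, mostly DCN.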

How the data were processed

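Single-cell RNA from 2 samples of WaGa cells was prepared with 10x Genomics 3′ Chromium v2.0, per the labels' protocols. The authors deposited 1 table of values on the natural log scale, of 1 plus counts per 10000 in each cell. Cell Ranger, Seurat and hg19 are named in the submitters' processing notes; versions, annotation and cell filters are not given in the sources used here. Cells were assigned to libraries by the treatment word ending each cell name, and 0 columns had no sample.

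The smallest back-transformed value in a cell was taken as 1 UMI. This made 100% of values whole within a relative tolerance of 0.001. The 48 barcodes found in both libraries were kept as separate cells, and doublets were not called. UMIs were summed per library and divided by its total (CPM). Ratios are labelled treated over labelled untreated, with Clopper-Pearson intervals, and genes needed 50 UMIs over both libraries. The thinning depth of 4351 UMIs, set at percentile 10 of the depths in the shallower library, left out 245 and 667 shallower cells. Phases were called with scanpy 1.11.5, and Leiden clusters were found per library at a resolution of 0.5 on 2000 variable genes. Python 3.11.15 was used with numpy 2.4.6, scipy 1.17.1 and pandas 2.3.3. The ratio intervals were tried on library totals simulated as Poisson counts. Those counts leave out the uneven spread of UMIs over cells, so the trial cannot show whether the intervals cover it. Thinning was checked for its mean counts on part of the cells.

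Named genes were the 8 keratins, every other keratin gene with 50 UMIs, the 2 highest and 2 lowest ratios of each of 5 lists, and the 3 genes most like each abundant keratin. Any other gene was chosen after its values were seen. A gene that the rule selects is not reported here. Members and lists were chosen with earlier results of these data known. Alternatives changed the scaling, cell weights, pseudocount, minimum, cells used, thinning and correlation measure.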

Additional observations from a re-analysis of the deposited data

How the results depend on the processing

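No paired analysis was possible because each group has 1 library and the labels give no replicate numbers, and for the same reason no library could be left out. The count of 5 keratins at least 1.5-fold lower became 3 (KRT8, KRT18 and KRT19) with a pseudocount of 0.1 per 10000, with cells of 7000 to 12000 UMIs, with G1 cells and with thinned cells. Over all alternatives, the one without shared barcodes added after seeing the data, the ratio ranged from 0.564 to 0.639 for KRT8, 0.521 to 0.582 for KRT18, 0.402 to 0.558 for KRT19, 0.697 to 0.995 for KRT20 and 0.864 to 1.03 for KRT10. KRT7 ranged from 0.0617 to 0.841, the latter with the pseudocount. The only reversed value was KRT5 in G1 cells, with a log2 ratio of 2.48 from 4 and 16 UMIs. Of all member ratios under alternatives, 53 stayed within their interval and 22 moved beyond it. KRT8 with KRT18 had r of 0.45 and 0.32 at the median depth, 0.46 and 0.32 without thinning, and 0.22 and 0.16 in G2/M cells (labelled untreated, then treated), and 0.39 in G1 cells labelled untreated. KRT20 with KRT19 had 0.33 and 0.12 in G1 cells and 0.27 and 0.08 without thinning. Over all keratin pairs and settings, 116 values lay within 0.05 of the reported r and 32 did not. The cause of these shifts was not tested. Leaving out cells whose barcode occurs in both libraries changed no count. Depth limits KRT7, KRT5 and KRT14 most, since they rest on 111, 364 and 6 UMIs.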

Other observations

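Several hair keratin-associated protein genes of the chromosome 17 cluster had a few UMIs gathered in few cells. KRTAP3-1 had 25 UMIs in the thinned cells labelled untreated, 10 of them in the 95 cells with 10 or more KRT19 UMIs, and in the treated-labelled library 9 of its 19 UMIs were in 1 of the 5 such cells. KRTAP9-9 had 6 of 12 UMIs in the 95 cells. KRTAP17-1, the most abundant of them, had 2013 UMIs in thinned cells labelled untreated, of which 22.4% were in the 95 cells. Over all thinned cells its mean was 0.517 UMIs labelled untreated and 0.395 labelled treated, and without the KRT19-rich cells it was 0.411 and 0.394.

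The hair keratins KRT81 and KRT86 shared cells in the untreated-labelled library, where 29 cells held a UMI of both and the product of their shares gives 11.2. KRT7, their neighbour, shared 7 cells with KRT81, where the product gives 5.07. KRT81 and KRT86 are near-identical copies, and how reads that match both were counted is not given in the sources used here. KRT5 and KRT15 shared 68 cells labelled untreated, with 46.1 from the product, and 44 labelled treated, with 30.4. All these shared counts are from cells before thinning, with 2066 to 26525 UMIs per cell labelled untreated. Uneven depth by itself raises a shared count above the product, so the excess cannot be read as co-expression. The part of depth and of cell cycle phase in it was not tested.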
